A study of Mus musculus with 10 samples.

Results

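The 39 nuclear genes described here encode subunits of the mitochondrial respiratory chain and of ATP synthase, together with cytochrome c. They comprise 18 subunits of complex I, 4 of complex II, 6 of complex III, cytochrome c, 6 subunits of complex IV and 4 of complex V. The list was given by name, and a gene was measured where probe sets named it and no other gene in both deposited tables; all 39 of the 39 qualified, out of 19048 genes so measured. All 39 also passed the filter on dim genes, which kept 12485 genes for testing.

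The arrays compared wild-type (WT) mice with KLF13 KO mice, which lack KLF13, a zinc finger factor of the Krüppel-like family that binds GC-rich and CACCC-type DNA. All animals were 12-week-old Balb/c males, 5 of each genotype, and the sources used here do not give how the gene had been disrupted. CD3+ T cells were taken from the spleen and kept for 4 days with plate-bound anti-CD3 and soluble anti-CD28 antibodies before total RNA was hybridised to Affymetrix arrays. The activation was common to both genotypes, and no resting cells were compared.

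Oxidative phosphorylation couples the oxidation of NADH and succinate to ATP synthesis. Complexes I and II pass electrons to ubiquinone, complex III passes them on to cytochrome c, and complex IV reduces oxygen, while complexes I, III and IV pump protons that drive complex V. T cells activated through CD3 and CD28 enlarge their mitochondrial content and raise respiration along with glycolysis. The genes of these complexes are transcribed in most cells, and NRF1, the ETS factor GABP, YY1 and the PGC-1 coactivators are textbook regulators of many of them.

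Values were log2 RMA signals, a summary of probe brightness that carries no unit of its own and does not compare RNA amounts between genes. Replicates 1, 2 and 3 of each genotype were measured by exon-level probe sets and replicates 4 and 5 by gene-level probe sets, in 2 tables normalized separately. Within the exon-level table, replicate 1 sat on its own scale, with array medians of 5.21 (WT1) and 5.23 (KO1) against 6.25 to 6.43 for replicates 2 and 3. Knockout was therefore compared with wild type within 3 sets, namely replicate 1, replicates 2-3 and replicates 4-5, and over the 10 arrays with the set as a block. KO3 stood apart from the other arrays: the SD of its differences from KO2 over all tested genes was 0.659, against 0.164 between WT2 and WT3, 0.241 between WT4 and WT5 and 0.197 between KO4 and KO5.

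Klf13 itself was lower in all 5 knockout arrays. Klf13 read 6.03 in WT1 against 5.41 in KO1, and 6.95 and 6.89 in WT2 and WT3 against 6.16 and 6.07 in KO2 and KO3. Gene-level values of Klf13 were 7.21 and 7.54 in WT4 and WT5, and 6.21 and 6.46 in KO4 and KO5. The difference over the 10 arrays was -0.86 ± 0.12 (SE; limma, adjusted p = 0.0126), and a signal for the targeted gene remained in the knockout arrays. With the disruption not described, the position of the probes relative to it is unknown here. All 6 of the T cell markers present in both tables passed the filter on dim genes, while 3 of 5 such B cell, 2 of 3 plasma cell, 3 of 7 myeloid, 1 of 3 NK cell, 1 of 1 erythroid and 3 of 4 endothelial and stromal markers did. Of all 19048 genes in both tables, 12485 passed this filter. None of these markers passed the test between genotypes over the 10 arrays (0.585% of all tested genes). An unadjusted p under 0.05 was found for 2 T cell markers and 1 plasma cell marker (14.9% of all tested genes).

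None of the 39 subunit genes changed at an adjusted p under 0.05 over the 10 arrays, where 0.585% of all tested genes did (limma with Benjamini-Hochberg adjustment over the 12485 genes). The smallest adjusted p among them was 0.157, for Atp5a1. Their differences nevertheless lay mostly on the same side. 36 of 39 were below 0, against 63.5% of all tested genes, and their median was -0.28 on the log2 scale with a range of -0.79 to 0.09, against a median of -0.0973 for all tested genes. At an unadjusted p under 0.05, 20 of the 39 were lower and none higher, where 12.8% of all tested genes were lower. This count depended on the scaling, the block and single arrays. It was 9 with quantile normalization within each table (7.91% of all tested genes), 10 with array medians subtracted (896 of the 12485 tested genes), 7 with quantile normalization and the median of exon-level probe sets (892 genes) and 2 with the 2 tables as the block (158 genes). Leaving out WT3, WT2 or KO4 gave 10, 11 and 13 members, among 837, 884 and 1166 genes. The count was larger without KO3, at 26 among 1851 genes, and with array weights, at 23 among 1747. Without KO3 and with quantile normalization it was 11 among 971.

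The sign was shared by most members within each set. The median difference was -0.19 in replicate 1, -0.37 in replicates 2-3 and -0.23 in replicates 4-5, with 33, 36 and 38 of the 39 below 0. The corresponding shares of all tested genes were 53.5%, 65.2% and 52.5%, with medians of -0.0179, -0.219 and -0.0105. In 30 of the 39 the difference was below 0 in all 3 sets, as it was in 3092 of the 12485 tested genes. Tested alone, replicates 2-3 gave 0 members (0% of all tested genes) and replicates 4-5 gave 0 members (2.72% of all tested genes) by limma. At an unadjusted p under 0.05 these sets gave 4 and 8 members (9.52% and 16% of all tested genes). The smallest adjusted p in these comparisons was 0.372 in replicates 2-3 and 0.0968 in replicates 4-5. In replicates 2-3, leaving out KO2 gave 30 members among 9608 genes called and leaving out KO3 gave 10 among 2499, with the spread then taken from WT2 and WT3 alone.

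**Figure D1:**
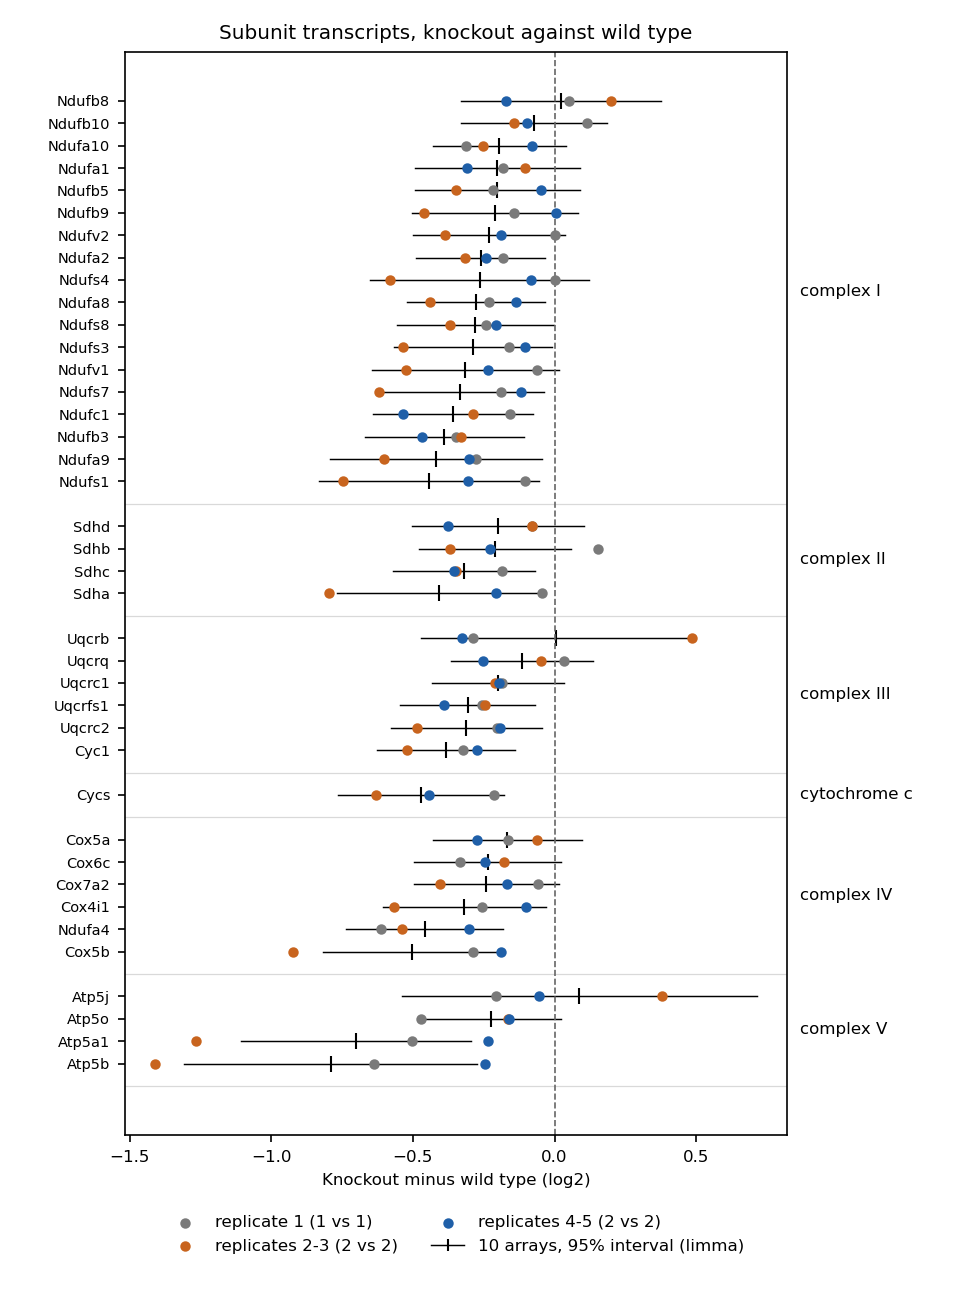
Knockout minus wild-type difference (log2, horizontal axis) of each of the 39 subunit genes, grouped by complex; points are the differences within replicate 1, replicates 2-3 and replicates 4-5, and the black tick and bar are the estimate over the 10 arrays with its 95% interval from limma. Most points lie left of 0, from -1.41 (Atp5b in replicates 2-3) to 0.48 (Uqcrb in replicates 2-3), and the points of replicates 2-3 are the most spread.

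Array by array, the knockout medians were all below the wild-type mean of their set. Over the 39 genes the median was -0.19 in KO1, -0.31 in KO2, -0.58 in KO3, -0.20 in KO4 and -0.20 in KO5. The same medians over all tested genes were -0.02, -0.11, -0.34, -0.03 and 0.0007. All 39 genes were below the wild-type mean in KO2, 38 in KO5, 36 in KO4 and 33 in KO1, while KO3, whose median was the lowest, had 31. The arrays thus differed in spread as well as in level, with KO3 holding both the lowest median and the most genes above wild type.

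The genotypes were fully separated for many members. In replicates 2-3, both knockout arrays were below both wild-type arrays for 31 of the 39 (43.1% of all tested genes), and in replicates 4-5 for 28 of the 39 (26% of all tested genes). The opposite order was found for 0 of the 39 in either set, against 11.7% and 20.3% of all tested genes. For 20 of the 39, all 5 knockout arrays were below every wild-type array of their set, against 10.8% of all tested genes; for another 13 this held in 4 of 5.

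**Figure D2:**
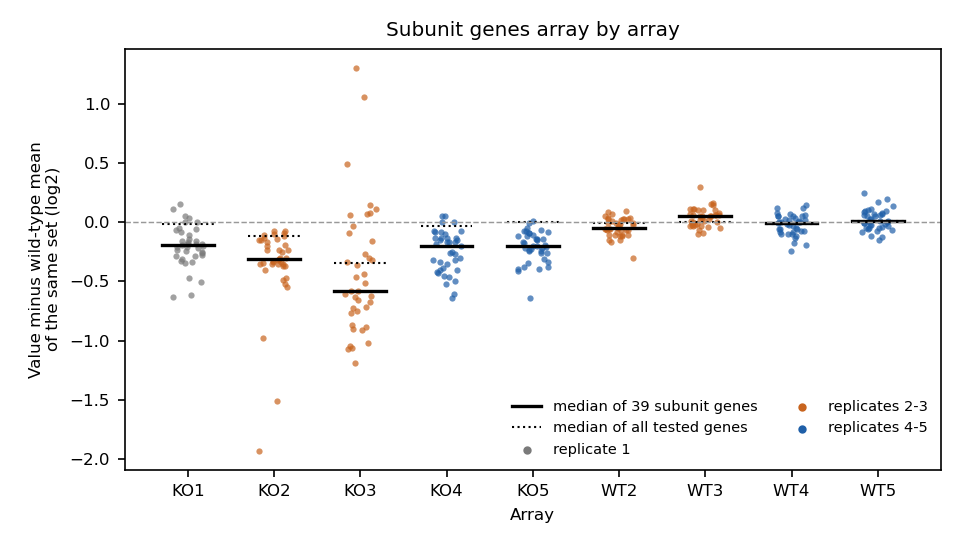
Value of each of the 39 subunit genes in each array minus the wild-type mean of the same set (log2, vertical axis), for the 5 knockout arrays and the wild-type arrays of the sets with 2 of them; solid bars are the medians of the subunit genes and dotted bars those of all tested genes. The solid bars of KO1 to KO5 lie between -0.58 (KO3) and -0.19 (KO1), each below its dotted bar, and KO3 carries the most scatter.

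The members were bright genes, and in part of the data bright genes as a whole read lower in the knockout. Ranked by mean level among all tested genes and divided into deciles, 34 of the 39 fell in the 3 brightest deciles over both tables. These deciles rank probe signal and not the amount of RNA. In replicates 2-3 the median difference of the other genes ran from 0.22 in the dimmest decile to -0.68 in the brightest. It was -0.13 in the brightest decile of replicate 1 and -0.04 in that of replicates 4-5. Measured against the median of their own decile, the members had a median distance of 0.12 in replicates 2-3, -0.15 in replicate 1 and -0.19 in replicates 4-5. In replicates 4-5, 38 of the 39 lay below the median of their decile, in replicate 1 30, and in replicates 2-3 10. Over the 10 arrays 24 lay below it, and the median distance was -0.02. Quantile normalization within each table brought the members' median over the 10 arrays to -0.16 and that of all tested genes to -0.03, with 36 of the 39 below 0 (54.5% of all tested genes). Subtracting each array's median brought them to -0.16 and 0.02, with 34 of the 39 below 0. The part of the shift of bright genes in the members' differences was not tested.

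**Figure D3:**
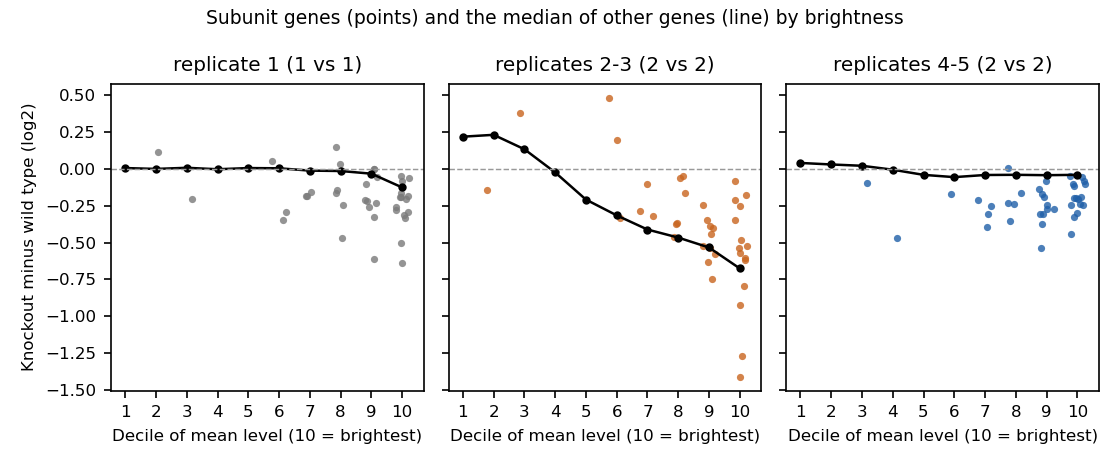
Knockout minus wild-type difference (log2, vertical axis) of the 39 subunit genes (points) and the median of all other tested genes (line) by decile of mean level (horizontal axis, 10 is the brightest), in replicate 1, replicates 2-3 and replicates 4-5. The line descends from 0.22 to -0.68 in replicates 2-3 and stays near 0 in replicates 4-5, where 38 of the 39 points lie below the line of their decile.

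The 6 T cell markers are also bright. In replicates 2-3, where no tested gene of any kind passed, their differences ran from -1.80 (Cd3g) to -0.19 (Thy1). Their median difference was -0.35 in replicate 1, -0.62 in replicates 2-3 and 0.03 in replicates 4-5, and their mean level was 9.95 to 10.87 in WT1, WT2 and WT3 against 9.55 to 10.11 in KO1, KO2 and KO3. On the gene-level arrays that mean level was 10.27 and 10.48 in wild type and 10.37 and 10.40 in knockout. Over the 10 arrays all 6 T cell markers were below 0 (63.5% of all tested genes). Their median there was -0.30, beside -0.28 for the members. The 3 B cell markers had a median difference of 0.19 over the 10 arrays, the 3 myeloid markers one of 0.18. The 3 endothelial and stromal markers had one of 0.17 and the 2 plasma cell markers one of -0.48. The single NK cell and erythroid markers were at 0.02 and 0.24. In bulk samples, fewer cells of a type and less RNA per cell cannot be told apart, and the part of these markers' levels in the members' differences was not tested. The members' own medians were -0.19 in replicate 1, -0.37 in replicates 2-3 and -0.23 in replicates 4-5.

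Complex I, the NADH dehydrogenase that starts the chain, is represented by 18 of its subunits. 17 of the 18 were below 0 over the 10 arrays (63.5% of all tested genes), with a median of -0.27. At an unadjusted p under 0.05, 9 were lower (12.8% of all tested genes). The medians within the sets were -0.17, -0.38 and -0.18 for replicate 1, replicates 2-3 and replicates 4-5. Ndufb3, an accessory subunit of the membrane arm, had the smallest p of the complex. Wild-type arrays WT1 to WT5 read 6.05, 7.18, 7.31, 5.80 and 5.92 for Ndufb3. Their knockout counterparts KO1 to KO5 read 5.70, 7.17, 6.66, 5.26 and 5.52. Every knockout value was below every wild-type value of its set, although KO2 lay only just below WT2, and the difference over the 10 arrays was -0.39 ± 0.13 (SE; limma, adjusted p = 0.232). Ndufs1 carries iron-sulfur clusters of the arm that oxidises NADH, and it had the lowest difference of the complex. For Ndufs1, the replicate 1 values were 7.58 (WT1) and 7.47 (KO1), and those of replicates 2-3 were 8.72 and 8.93 (WT2, WT3) and 8.52 and 7.63 (KO2, KO3). Replicates 4-5 gave 8.19 and 8.02 in wild type and 7.70 and 7.90 in knockout. The gap was largest in KO3, the array that stands apart, and the difference over the 10 arrays was -0.44 ± 0.18 (SE; limma, adjusted p = 0.289). Ndufa9, an accessory subunit near the ubiquinone site, was of similar size. The Ndufa9 values ran 7.99, 9.41, 9.54, 8.13 and 8.0 from WT1 to WT5. They ran 7.72, 9.33, 8.41, 7.60 and 7.92 from KO1 to KO5. All 5 knockout arrays were again the lower ones, with KO3 farthest from its wild-type counterparts, and the difference was -0.42 ± 0.17 (SE; limma, adjusted p = 0.296). In replicate 1 this rested mostly on the dimmest of the 11 exon-level probe sets of Ndufa9, at 5.43 in WT1 and 2.45 in KO1. Its other probe sets went either way by less, as with 9.04 and 9.21, or 9.16 and 8.94.

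The remaining 15 subunits of complex I spanned both the catalytic core and the accessory shell. Among core subunits that bind flavin or iron-sulfur clusters, the differences over the 10 arrays were -0.32 for Ndufv1, -0.23 for Ndufv2, -0.33 for Ndufs7 and -0.28 for Ndufs8. Ndufs3, a core subunit without a cluster, was at -0.29, and Ndufs4, an accessory subunit whose loss in mice causes a Leigh-like encephalopathy, was at -0.26. None of these passed the test. The accessory subunits Ndufa1, Ndufa2, Ndufa8, Ndufa10, Ndufb5, Ndufb9, Ndufb10 and Ndufc1 lay between -0.36 (Ndufc1) and -0.07 (Ndufb10). Ndufc1 had the lowest difference of all members in replicates 4-5, -0.53 (limma, adjusted p = 0.0968), and is named for this after its values were seen. Ndufb8, a membrane-arm subunit, was the exception in complex I, also named after its values were seen. Ndufb8 read 6.21 in WT1 against 6.26 in KO1, and 7.22 and 7.15 in WT2 and WT3 against 7.09 and 7.68 in KO2 and KO3. Gene-level values of Ndufb8 were 6.37 and 6.86 in WT4 and WT5, and 6.67 and 6.22 in KO4 and KO5. Its knockout arrays lay on both sides of the wild-type arrays, and its difference was 0.02 ± 0.16 (SE; limma, adjusted p = 0.942) over the 10 arrays and -0.10 without KO3.

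Complex II, succinate dehydrogenase, belongs both to the citric acid cycle and to the respiratory chain. All 4 of its subunits were below 0 over the 10 arrays (63.5% of all tested genes), with a median of -0.26. At an unadjusted p under 0.05, 2 were lower (12.8% of all tested genes). The set medians were -0.06, -0.36 and -0.29. Sdhc, a membrane anchor that helps to bind ubiquinone, had the smallest p. Wild-type arrays WT1 to WT5 read 8.31, 9.22, 9.17, 7.36 and 7.74 for Sdhc. Their knockout counterparts KO1 to KO5 read 8.12, 8.86, 8.83, 7.25 and 7.14. The wild-type and knockout values did not overlap within any set, and the difference over the 10 arrays was -0.32 ± 0.11 (SE; limma, adjusted p = 0.257). Sdha, the flavoprotein that oxidises succinate, had the lowest difference. For Sdha, the replicate 1 values were 8.83 (WT1) and 8.78 (KO1), and those of replicates 2-3 were 10.27 and 10.48 (WT2, WT3) and 9.85 and 9.30 (KO2, KO3). Replicates 4-5 gave 9.29 and 9.05 in wild type and 8.85 and 9.08 in knockout. KO5 lay between WT4 and WT5, so that 4 of 5 knockout arrays were below wild type, and the difference was -0.41 ± 0.16 (SE; limma, adjusted p = 0.287). Sdhb, the iron-sulfur subunit, was at -0.21 and above wild type in replicate 1, at 0.15, and the anchor Sdhd was at -0.20. Single probe sets weighed on the replicate 1 values of Sdhb and Sdha. The dimmest of Sdhb read 4.06 in WT1 and 5.75 in KO1, while its others went both ways by less. For Sdha, a probe set read 9.27 in WT1 and 11.60 in KO1, while most of its others were lower in KO1.

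Complex III, the cytochrome bc1 complex, takes electrons from ubiquinol to cytochrome c. Of its 6 subunits 5 were below 0 over the 10 arrays (63.5% of all tested genes). At an unadjusted p under 0.05, 3 were lower (12.8% of all tested genes). The median was -0.25 over the 10 arrays and -0.23, -0.23 and -0.26 in the sets. Cyc1, cytochrome c1, hands the electrons to cytochrome c and had both the smallest p and the lowest difference. The Cyc1 values ran 7.89, 8.78, 8.78, 8.57 and 8.51 from WT1 to WT5. They ran 7.57, 8.37, 8.14, 8.19 and 8.34 from KO1 to KO5. Each knockout array was below the wild-type arrays of its set, and the difference over the 10 arrays was -0.38 ± 0.11 (SE; limma, adjusted p = 0.189). Uqcrc2, a core protein of the matrix side, followed. Uqcrc2 read 8.54 in WT1 against 8.34 in KO1, and 9.76 and 9.71 in WT2 and WT3 against 9.43 and 9.08 in KO2 and KO3. Gene-level values of Uqcrc2 were 9.46 and 9.49 in WT4 and WT5, and 9.16 and 9.40 in KO4 and KO5. The knockout arrays were again all lower, by little in KO5, and the difference was -0.31 ± 0.12 (SE; limma, adjusted p = 0.282). The other core protein, Uqcrc1, was at -0.20, and Uqcrfs1, the Rieske iron-sulfur protein, at -0.31. Single probe sets weighed on Uqcrc1 in replicates 2-3. Of its 15 exon-level probe sets, 1 read 5.35 and 5.88 in WT2 and WT3 but 12.10 in KO3. Another read 7.78 and 8.07 in WT2 and WT3 but 10.02 in KO2, while most of the others were lower in KO3. The small subunit Uqcrq was at -0.11. Uqcrb, a ubiquinone-binding subunit measured by 1 exon-level probe set, was named after its values were seen because it lay above 0. Wild-type arrays WT1 to WT5 read 6.34, 7.14, 6.96, 9.09 and 8.99 for Uqcrb. Their knockout counterparts KO1 to KO5 read 6.05, 6.96, 8.10, 8.61 and 8.81. Only KO3 was above its wild-type arrays, and the difference was 0.0048 ± 0.22 (SE; limma, adjusted p = 0.987) over the 10 arrays and -0.24 without KO3.

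Cytochrome c, encoded in somatic cells by Cycs, is the soluble carrier between complexes III and IV and, once released from mitochondria, a trigger of the apoptosome. For Cycs, the replicate 1 values were 7.67 (WT1) and 7.46 (KO1), and those of replicates 2-3 were 8.87 and 8.92 (WT2, WT3) and 8.55 and 7.98 (KO2, KO3). Replicates 4-5 gave 9.39 and 9.28 in wild type and 8.84 and 8.95 in knockout. Those came from the brightest of 3 gene-level probe sets. Another read 8.92 and 8.82 in WT4 and WT5, and 8.40 and 8.52 in KO4 and KO5. The dimmest read 5.70 and 4.33 in WT4 and WT5, and 5.61 and 5.00 in KO4 and KO5, with overlap. By the gene values used, the knockout arrays were lower in all 3 sets without overlap. The difference over the 10 arrays was -0.47 ± 0.13 (SE; limma, adjusted p = 0.176), with a 95% interval of -0.76 to -0.18, and the set differences were -0.21, -0.63 and -0.44. Without KO3 the difference was -0.36 ± 0.08 (SE; limma, adjusted p = 0.0389), the only member to pass in the fit that left out that array. With arrays weighted by their agreement, Cycs, Atp5a1 and Atp5b passed, at differences of -0.37, -0.54 and -0.64 (limma, adjusted p = 0.035, 0.0406 and 0.0442), where 4.04% of all tested genes did.

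Complex IV, cytochrome c oxidase, is the terminal enzyme. All 6 of its measured subunits were below 0 over the 10 arrays (63.5% of all tested genes), with a median of -0.28. At an unadjusted p under 0.05, 3 were lower (12.8% of all tested genes). Set medians were -0.27, -0.47 and -0.22. Ndufa4, first described with complex I and now assigned to cytochrome c oxidase, had the smallest p. The Ndufa4 values ran 7.96, 8.65, 8.95, 9.18 and 9.04 from WT1 to WT5. They ran 7.35, 8.45, 8.08, 8.72 and 8.89 from KO1 to KO5. All knockout values were below the wild-type values of their set, and the difference over the 10 arrays was -0.46 ± 0.13 (SE; limma, adjusted p = 0.169). Cox5b, a zinc-binding subunit of the matrix side, had the lowest difference. Cox5b read 9.25 in WT1 against 8.96 in KO1, and 10.37 and 10.36 in WT2 and WT3 against 9.39 and 9.49 in KO2 and KO3. Gene-level values of Cox5b were 9.92 and 9.88 in WT4 and WT5, and 9.74 and 9.69 in KO4 and KO5. The gap was about a log2 unit in replicates 2-3, where the knockout difference was -0.92, and -0.19 in replicates 4-5, and the difference over the 10 arrays was -0.50 ± 0.14 (SE; limma, adjusted p = 0.178). The 4 other subunits were Cox4i1, the widely expressed form of subunit IV, at -0.32, Cox5a at -0.17, Cox6c at -0.24 and Cox7a2 at -0.24.

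Complex V, ATP synthase, was represented by the alpha and beta subunits of its catalytic head and by Atp5o and Atp5j, which belong to the stalk that holds the head in place. 3 of the 4 were below 0 over the 10 arrays (63.5% of all tested genes). At an unadjusted p under 0.05, 2 were lower (12.8% of all tested genes). The median was -0.46, with set medians of -0.49, -0.72 and -0.20. The median of the 37 members other than Atp5a1 and Atp5b was -0.26. Atp5a1 encodes the alpha subunit. Wild-type arrays WT1 to WT5 read 10.77, 12.32, 12.43, 11.18 and 11.08 for Atp5a1. Their knockout counterparts KO1 to KO5 read 10.27, 10.87, 11.35, 10.79 and 10.99. The knockout arrays were all lower, by more than a log2 unit in KO2 and KO3, and the difference over the 10 arrays was -0.70 ± 0.19 (SE; limma, adjusted p = 0.157). Atp5b encodes the beta subunit, which holds the catalytic sites. For Atp5b, the replicate 1 values were 10.87 (WT1) and 10.23 (KO1), and those of replicates 2-3 were 12.55 and 12.78 (WT2, WT3) and 10.73 and 11.77 (KO2, KO3). Replicates 4-5 gave 11.55 and 11.45 in wild type and 11.10 and 11.41 in knockout. All knockout arrays were lower, KO2 by far the most and KO5 by the least. Its difference over the 10 arrays was -0.79 ± 0.24 (SE; limma, adjusted p = 0.202), with a 95% interval of -1.31 to -0.27, and its set differences were -0.64, -1.41 and -0.25.

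Atp5a1 and Atp5b were also among the very brightest genes of the exon-level table, at the 99.7th and 99.8th percentile of mean level there. The 123 other genes of the brightest 1% had a median difference of -0.48 in replicate 1, -1.21 in replicates 2-3 and -0.01 in replicates 4-5. Beside these medians, Atp5a1 was at -0.50, -1.27 and -0.24 and Atp5b at -0.64, -1.41 and -0.25, and the part of brightness in their differences was not tested. Atp5o was at -0.22 over the 10 arrays. Atp5j, measured by 1 exon-level probe set and named after its values were seen, had the highest difference of the members. The Atp5j values ran 5.25, 5.21, 5.82, 9.21 and 9.26 from WT1 to WT5. They ran 5.05, 4.97, 6.82, 9.24 and 9.12 from KO1 to KO5. KO3 alone was above the wild-type arrays of its set by a wide margin, and the difference was 0.09 ± 0.29 (SE; limma, adjusted p = 0.861) over the 10 arrays and -0.24 without KO3.

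**Figure D4:**
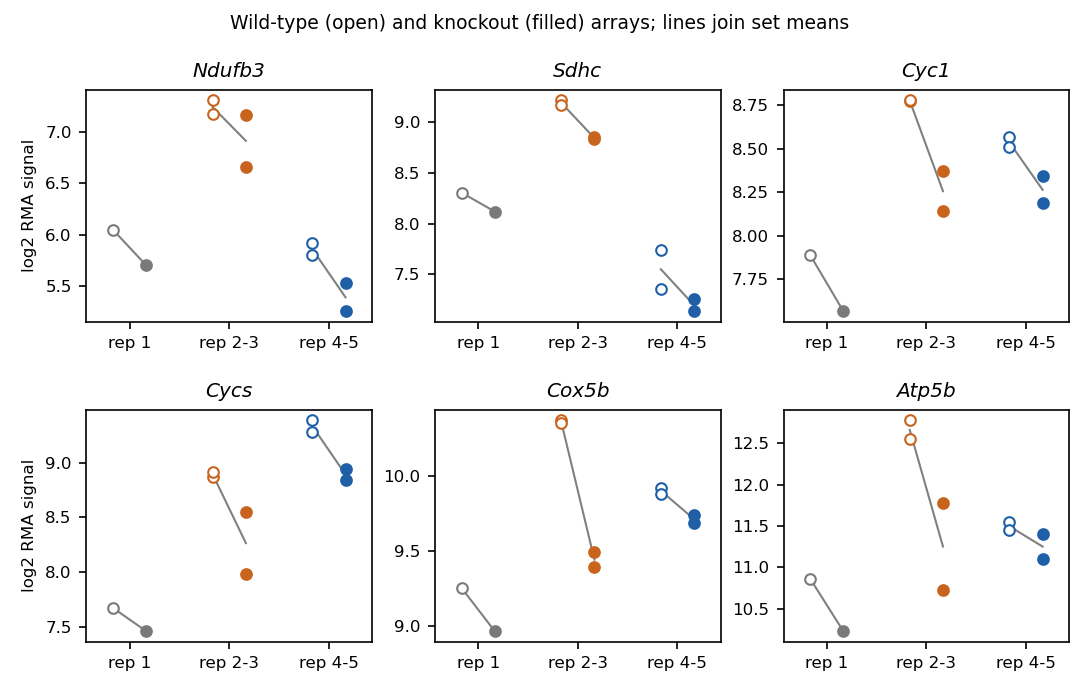
Log2 RMA signal (vertical axes, each on its own range and not starting at 0) of the member with the smallest p in complexes I, II and III, of Cycs, and of the member with the lowest difference in complexes IV and V, in wild-type (open) and knockout (filled) arrays of the 3 sets; grey lines join the set means. All 6 genes have every knockout array below the wild-type arrays of its set, and Atp5b shows the widest gap, with a difference of -1.41 in replicates 2-3.

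8 members were above the wild-type mean in KO3. They were Ndufa1, Ndufb8, Ndufb10, Sdhd, Uqcrb, Uqcrq, Cox5a and Atp5j, by 0.06 (Ndufb10) to 1.31 (Atp5j). All 8 were below the wild-type mean in KO2, at -0.55 (Atp5j) to -0.09 (Uqcrb). With KO3 left out, 39 of 39 members were below 0 (61.4% of all tested genes), the median was -0.24, and 1 member, Cycs, passed (2.9% of all tested genes). With replicates 2-3 left out entirely, 39 of 39 were below 0 (53% of all tested genes), the median was -0.22, and 0 members passed (2.03% of all tested genes).

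Between replicates 2-3 and replicates 4-5, no member's difference passed the test of the change itself (0% of all tested genes), and 3 of the 39 had an unadjusted p under 0.05 (11.2% of all tested genes). Those 3 were Atp5a1, Cox5b and Atp5b, whose differences were higher in replicates 4-5 by 1.03, 0.73 and 1.17 (limma, adjusted p = 0.353, 0.377 and 0.426). They are the members with the lowest differences in replicates 2-3. Without KO2, 16 members passed this test, 14 of them higher in replicates 4-5 and 2 lower, among 6666 of all tested genes. Without KO3, 3 passed, among 659 of all tested genes. With either array left out, the spread came from the pairs WT2 and WT3, WT4 and WT5, and KO4 and KO5 alone.

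The exon-level table measured each member by a median of 6 probe sets, from 1 (Uqcrb and Atp5j) to 20 (Ndufs1). Of the 262 probe sets of members at or above the 30th percentile of brightness, 203 (77.5%) were lower in KO1 than in WT1, against 52.4% of 148468 such probe sets over all genes. In replicates 2-3, 215 (82.1%) were lower by the set mean, against 64.0%. The median differences were -0.19 and -0.56, against -0.03 and -0.28. Probe sets of a gene share its RNA, so these counts describe the breadth of the difference along the transcripts and are no replicates.

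Promoter sequence was at hand for 28 of the 39 members, as 29 RefSeq windows of 300 bases in GRCm38.p6, running from 250 bases before the start of transcription to 50 after it. The stretches before the start are shown for Cycs, the member that passed without KO3, for Cox5b, the lowest of complex IV, and for Atp5b, the lowest of all. They are written 5′ to 3′ on the strand of the gene, with capitals for the letters of any searched motif on either strand. Cycs lies on the minus strand at chr6:50566570-50566819, Cox5b on the plus strand at chr1:36691237-36691486 and Atp5b on the plus strand at chr10:128083057-128083306.
Cycs: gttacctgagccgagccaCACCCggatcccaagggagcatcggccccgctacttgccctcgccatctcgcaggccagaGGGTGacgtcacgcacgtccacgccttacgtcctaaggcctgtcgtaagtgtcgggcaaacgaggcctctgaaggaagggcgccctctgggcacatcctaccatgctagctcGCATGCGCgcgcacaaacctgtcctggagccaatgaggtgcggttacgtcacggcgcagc
Cox5b: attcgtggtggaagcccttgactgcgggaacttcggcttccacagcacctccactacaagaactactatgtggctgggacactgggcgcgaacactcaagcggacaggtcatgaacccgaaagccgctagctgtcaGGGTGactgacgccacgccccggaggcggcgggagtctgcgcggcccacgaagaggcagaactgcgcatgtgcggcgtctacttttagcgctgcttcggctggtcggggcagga
Atp5b: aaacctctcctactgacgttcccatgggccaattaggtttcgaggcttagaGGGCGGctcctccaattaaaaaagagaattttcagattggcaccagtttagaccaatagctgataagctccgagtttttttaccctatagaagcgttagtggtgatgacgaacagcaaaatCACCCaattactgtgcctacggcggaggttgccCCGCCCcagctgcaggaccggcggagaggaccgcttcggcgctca

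The 5 motifs searched, on both strands, were GCATGCGC for NRF1, CCGGAAG for ETS factors including GABP, AAGATGGC for YY1, GGGCGG for the GC box and CACCC for the CACCC box that Krüppel-like factors can bind. In the stretches shown, Cycs held the NRF1 letters on its own strand from 60 to 53 bases before the start, and CACCC letters on both strands. Cox5b held 1 CACCC match, and Atp5b 2 GC boxes, on opposite strands, and 1 CACCC match, none of which overlapped another. NRF1 letters were in 4 of the 29 member windows (13.8%, against 2.71% of all 32851 windows), those of Cycs, Ndufa8, Sdhb and Uqcrc1. YY1 letters were in 6 (20.7% against 2.75%), those of Atp5j, Ndufa9, Ndufb8, Ndufc1, Ndufs4 and Ndufs7, and ETS letters in 5 (17.2% against 8.86%). GC boxes were in 13 (44.8% against 35.7%) and CACCC in 14 (48.3% against 57.5%). A match is a description of the letters and shows no binding.

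Of 37 other nuclear subunits of the same complexes, 34 were tested. None changed over the 10 arrays by limma, and 10 had an unadjusted p under 0.05 (14.9% of all tested genes). Below 0 were 27 (63.5% of all tested genes), and the median was -0.17, with set medians of -0.15, -0.22 and -0.15. The smallest p belonged to Ndufb6, an accessory subunit of complex I. Ndufb6 read 9.28 in WT1 against 9.16 in KO1, and 10.37 and 10.48 in WT2 and WT3 against 10.05 and 9.65 in KO2 and KO3. Gene-level values of Ndufb6 were 8.58 and 8.70 in WT4 and WT5, and 8.22 and 8.36 in KO4 and KO5. All 5 knockout arrays were lower, and the difference was -0.40 ± 0.13 (SE; limma, adjusted p = 0.223). Cox7c and Ndufb4, measured on exon-level arrays only, differed by -0.26 and -0.05 in replicate 1 and by 0.03 and -0.37 in replicates 2-3.

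The 13 subunits encoded by mitochondrial DNA could not enter the test, because none was measured in both tables. ND1 and ND2, of complex I, differed by -1.36 and -0.91 in replicate 1 and by -1.76 and -1.80 in replicates 2-3. COX1 and COX3, of complex IV, differed by -1.42 and -0.45 in replicate 1 and by -1.60 and -2.25 in replicates 2-3. These are among the brightest signals of the arrays. KO2 and KO3 differed widely for ND1, ND2 and COX1: ND1 read 14.88 and 14.86 in WT2 and WT3, 11.93 in KO2 and 14.28 in KO3. For COX3 both knockout arrays were low, at 11.52 in KO2 and 11.94 in KO3 against 14.06 and 13.90 in WT2 and WT3. ATP6, of complex V, differed by -0.83 and -0.74, and read 11.24 in KO2 and 14.49 in KO3. ND4L differed by -0.32 and -0.30 and ND6 by -0.08 and 0.28. On the gene-level arrays ND3 and COX2, measured there only, differed by 0.12 and 0.29 in replicates 4-5 by the set means, although ND3 read 9.78 in KO4, below its 9.88 in WT4.

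Assembly factors insert cofactors and join the subunits. Of 45, 39 were tested, and none changed over the 10 arrays by limma. An unadjusted p under 0.05 was found for 6, a share near the 14.9% of all tested genes. Below 0 were 35 (63.5% of all tested genes), and the median was -0.19, with -0.03, -0.34 and -0.10 in the sets. Taco1, a translational activator of COX1, had the smallest p, with a difference of -0.48 ± 0.18 (SE; limma, adjusted p = 0.274). In replicates 4-5, Sco1, a copper chaperone of complex IV, fell by 0.77 (limma, adjusted p = 0.0299) and was the only one of the 39 to pass there, a share near the 2.72% of all tested genes; its differences were 0.22 in replicate 1 and -0.30 in replicates 2-3.

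Regulators of mitochondrial biogenesis include the factors named above and the enzymes that copy and transcribe mitochondrial DNA. Of 15, 14 were tested and 12 were below 0 (63.5% of all tested genes). None changed by limma and 1 had an unadjusted p under 0.05 (14.9% of all tested genes), with a median of -0.18 over the 10 arrays and -0.04, -0.41 and -0.02 in the sets. Tfb2m, a mitochondrial transcription factor, had the smallest p. Wild-type arrays WT1 to WT5 read 6.89, 8.16, 8.30, 6.97 and 6.76 for Tfb2m. Their knockout counterparts KO1 to KO5 read 6.59, 7.79, 6.59, 6.50 and 6.55. All knockout arrays were lower, and the gap was widest in KO3. The difference was -0.61 ± 0.22 (SE; limma, adjusted p = 0.257). Carriers and porins move ADP, ATP, phosphate and metabolites across the mitochondrial membranes. Of 8, 7 were tested, 6 of them below 0 (63.5% of all tested genes). None changed by limma and 4 had an unadjusted p under 0.05 (14.9% of all tested genes), with a median of -0.35 and set medians of -0.10, -0.58 and -0.21. Slc25a4, an ADP/ATP carrier, had the smallest p. For Slc25a4, the replicate 1 values were 8.42 (WT1) and 8.32 (KO1), and those of replicates 2-3 were 10.45 and 10.27 (WT2, WT3) and 9.54 and 9.34 (KO2, KO3). Replicates 4-5 gave 9.54 and 9.54 in wild type and 9.07 and 9.39 in knockout. All knockout arrays were lower, and the difference was -0.51 ± 0.15 (SE; limma, adjusted p = 0.198). Ucp2, the uncoupling protein of immune cells, was on exon-level arrays only, with differences of -0.49 in replicate 1 and -0.49 in replicates 2-3.

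Subunit forms made mainly in heart, muscle, lung or testis are mostly silent elsewhere. Of 7, 5 were tested, none of them below 0 over the 10 arrays (63.5% of all tested genes). None changed by limma and 0 had an unadjusted p under 0.05, with a median of 0.07 over the 10 arrays and -0.03, 0.28 and -0.10 in the sets. All 5 were in the 5 dimmest deciles of mean level over both tables. With genes ranked on the exon-level arrays alone, the 5 dimmest deciles had other members' places. Their median differences in replicates 2-3 ran from 0.23 (the second dimmest) to -0.21 (the fifth dimmest). Cox6a2, the heart and muscle form of a complex IV subunit, had the smallest p, with a difference of 0.24 ± 0.15 (SE; limma, adjusted p = 0.436).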

How the data were processed

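Total RNA of 10 mice was hybridised to Affymetrix arrays. The deposited values are log2 RMA signals in 2 tables, per the submitters' processing notes, which name RMA, and the values themselves; the sources used here name neither a build nor a version. The labels' protocols name a 3′ amplification kit. The number of arrays limits the precision.

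Probe sets were named through the platform annotation and RefSeq symbols. The exon-level table held 241576 probe sets, of which 212097 named 1 gene, 4475 several and 25004 none. The gene-level table held 35556, of which 21789 named 1 gene, 1621 several and 12146 none. A gene's value was the mean of its exon-level probe sets and the brightest of its gene-level probe sets. Genes in both tables were kept if their mean log2 signal reached the 30th percentile in each, and tested with limma 3.58.1 (R 4.3.3; lmFit and eBayes, 2-sided, Benjamini-Hochberg, threshold 0.05), with the set of arrays as a block, and the code was tested on simulated data. The tables were normalized separately, so levels are compared only within a set.

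The labels name separate mice and give both genotypes the same replicate numbers. Over genes, same-numbered arrays tended to deviate in opposite directions (correlation -0.42 in replicates 2-3 and -0.24 in replicates 4-5). With 2 arrays per genotype in a set, this only compares the 2 possible pairings, and it cannot show whether arrays were paired. No pairing was used. The members, gene lists and tests were chosen with earlier results of these data known. Array values are given for the member of smallest p and the 2 of largest difference in each complex. Of the other tested lists, they are given for Ndufb6, Tfb2m and Slc25a4, each the gene of smallest p. Taco1 and Cox6a2, of smallest p in their lists, are given by their differences alone. Alternatives covered normalization, gene values, filter, variance model, blocks, array weights and leaving out each array.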

Additional observations from a re-analysis of the deposited data

Results flagged for a closer look

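For Klf13 and the 15 members with array values, the values of each genotype were centred on the mean of their set and searched for an array far from the other 4. Of 32 such groups 4 held one. For independent values chance gives about 1 in 20, but that rate does not apply here, because both genotypes share the set means and 3 of the 4 are in the genes named after their values were seen, Ndufb8, Uqcrb and Atp5j. Atp5b in KO2 was at -1.23, with the other knockout arrays between -0.32 and 0.03. Ndufb8 in WT5 was at 0.33, with the other wild-type arrays between -0.16 and -0.03. Uqcrb in KO3 was at 0.81, with the others between -0.33 and -0.06. Atp5j in WT2 was at -0.49, with the other wild-type arrays between 0.0001 and 0.11. Uqcrb and Atp5j were each measured by 1 exon-level probe set.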

How the results depend on the processing

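The 12 named members with a negative difference stayed below 0 in all 24 alternatives over the 10 arrays, with the smallest adjusted p at 0.035 (Cycs, array weights) and values up to 0.9998 with the 2 tables as the block. Array weights called 3 members, Atp5a1, Atp5b and Cycs. The members' median over the 10 arrays was -0.30 to -0.24 with single arrays left out, and 0 to 1 members were called. Over all genes, 73 calls became 12 to 362 with single arrays left out, 4 with the 2 tables as the block, 504 with array weights, 31 with the median of exon-level probe sets and 39 with that median and quantile normalization. Without replicates 2-3 they were 254, and without KO3 with quantile normalization 267, both alternatives chosen after seeing the data. With single arrays left out, calls in replicates 2-3 ranged from 1 to 9608 (members 0 to 30), in replicates 4-5 from 193 to 529 (members 0), and for the difference between those sets from 0 to 6666 (members 0 to 16). Those member medians were -0.58 to -0.31 in replicates 2-3 and -0.23 to -0.20 in replicates 4-5. The robust trended fit called 517 genes and 2 members, Cycs and Ndufc1, in replicates 4-5, and 19 genes for the difference between sets.

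The replicate number as a block gave 23 calls over the 10 arrays and no member, 85 with 1 member (Atp5b) in replicates 2-3 and 660 with 1 member (Ndufc1) in replicates 4-5. The crossed pairing, added after the correlations were seen, gave 376 calls with 2 members and 938 with 3. Subtracting array medians gave member medians of -0.14 in replicates 2-3 and -0.16 in replicates 4-5, and quantile normalization -0.17 and -0.19. In replicates 4-5 the filter at the 50th percentile gave -0.23 and the mean of gene-level probe sets -0.21.

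The 3 members above 0 turned below it in some alternatives. Uqcrb was at -0.26 with array weights, -0.32 without replicates 2-3, -0.19 without KO3 with quantile normalization and -0.24 to 0.11 with single arrays left out. Atp5j was at -0.12, -0.11, -0.24 and -0.24 to 0.33 in that order. Ndufb8 was at -0.093, -0.10, -0.036 and -0.10 to 0.13. The causes were not tested. Signal over background limits dim probe sets, and with 2 arrays per genotype in a set the spread is poorly known.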
